A study of Homo sapiens with 30 samples.

Results

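The genes described here encode enzymes of the lysosome, proteins of its membrane, subunits of the pump that acidifies it, and TFEB, a transcription factor that switches many of them on. A list of 38 genes was matched exactly against the gene symbols of the array annotation, and 37 of them had at least 1 probe set of their own. Together they had 71 of the 22215 probe sets tested. The remaining gene, GLB1, a beta-galactosidase, shares its probe set with another gene and was not analysed here. Of the 37 genes, 20 had 1 probe set and 17 had several, up to 9 for IDS.

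The cells were a mixed culture of Caco-2, a colorectal carcinoma line that forms enterocyte-like cells, and HT29-MTX, a mucus-secreting colon carcinoma line selected with methotrexate. The lines were mixed at 75% Caco-2 and 25% HT29-MTX and grown for 14 days on porous inserts. Multi-walled carbon nanotubes (MWCNT) at 10 or 100 µg/ml, or titanium dioxide nanobelts (TiO2-NB) at 10 or 100 µg/ml, were added to the apical side for 1 or 24 h, and control cultures had only fresh medium for 1 or 24 h. The 10 groups held 3 arrays each, labelled as biological replicates. Flasks were pooled before the lines were mixed, so p-values measure the spread between these samples.

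Lysosomes degrade what cells take up by endocytosis and what they deliver by autophagy, using hydrolases that work best at acid pH. The acid is made by the V-ATPase, a proton pump with a soluble V1 sector that splits ATP and a membrane V0 sector that carries protons. TFEB binds a palindromic element with the core CACGTG, known as the CLEAR element, in the promoters of many lysosomal genes, and it is held in the cytosol when mTORC1 is active on the lysosomal surface. Particles that are taken up by intestinal epithelial cells generally end in this compartment.

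Promoters are shown because they are a feature of these genes that the array did not measure. RefSeq promoters on GRCh38.p14, which run from 250 bases before to 50 bases after the start of a gene, were found for 27 of the genes. The core CACGTG lay in 8 of these 27 promoters (29.6%), those of NEU1, CTSD, CD63, LAMP1, ATP6V0D1, GAA, MCOLN1 and CTSA, against 7.43% of all 27305 promoters in the table. The longer TCACGTGA, which contains the core, lay in 5 (18.5% against 1.04%), those of LAMP1, ATP6V0D1, GAA, MCOLN1 and CTSA. A form of 10 letters, with a further base at each end, lay in 2 (GAA and MCOLN1, 7.41% against 0.381%). Each motif reads alike on both strands. The following windows of 40 bases show the longer motif in its setting, with the motif in capitals. They come from GAA (chr17:80101488-80101527, plus strand), MCOLN1 (chr19:7522593-7522632, plus strand), LAMP1 (chr13:113297194-113297233, plus strand) and ATP6V0D1 (chr16:67481194-67481233, minus strand).
GAA: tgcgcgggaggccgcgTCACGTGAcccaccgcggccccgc
MCOLN1: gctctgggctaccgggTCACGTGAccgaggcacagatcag
LAMP1: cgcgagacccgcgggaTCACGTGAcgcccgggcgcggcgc
ATP6V0D1: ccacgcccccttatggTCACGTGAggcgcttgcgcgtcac

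Whole promoters are printed for CTSA and MAN2B1, both among the genes that were lower after 1 h with MWCNT at 100 µg/ml, because they differ in this element. The CTSA promoter (chr20:45891085-45891384, plus strand) held the core at 2 places, in capitals, 1 of them within the longer palindrome. The MAN2B1 promoter (chr19:12666693-12666992, minus strand) held none of these letters in the window, which says nothing about other sequences or about TFEB.
CTSA: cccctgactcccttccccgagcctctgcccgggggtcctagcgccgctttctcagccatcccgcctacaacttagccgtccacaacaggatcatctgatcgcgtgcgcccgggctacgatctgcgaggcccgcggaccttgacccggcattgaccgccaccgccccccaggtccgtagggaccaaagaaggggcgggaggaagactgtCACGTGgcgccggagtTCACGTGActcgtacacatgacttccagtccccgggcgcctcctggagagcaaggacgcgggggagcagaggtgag
MAN2B1: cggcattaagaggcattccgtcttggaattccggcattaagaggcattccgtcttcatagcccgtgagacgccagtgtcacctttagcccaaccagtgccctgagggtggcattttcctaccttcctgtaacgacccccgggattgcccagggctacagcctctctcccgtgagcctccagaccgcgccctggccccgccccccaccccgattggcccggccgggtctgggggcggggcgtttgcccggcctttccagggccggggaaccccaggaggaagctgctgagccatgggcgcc

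The arrays of each group were close to each other, with a lowest correlation of 0.997 within a group and array medians between 6.45 and 6.49. All 11 enterocyte markers and all 9 mucus-cell markers checked lay outside the dimmest tercile of the array's signals. Of 10 leukocyte markers, 3 lay in that tercile, among them PTPRC at a mean log2 level of 3.63. Those outside it included LYZ, which Paneth cells of the gut also make, at 11.31, AIF1 at 8.76, LAPTM5 at 7.24 and CD14 at 6.90. Of 7 fibroblast and endothelial markers, 3 lay in the dimmest tercile. In a co-culture, fewer cells of a type and less RNA per cell cannot be told apart.

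The lysosomal genes gave bright and steady signals. Values are log2 levels summarised by the authors with RMA, a method that makes the distributions of all arrays alike. The median mean level of the 71 probe sets was 9.70, against 6.47 over all tested, and 8 of the 71 lay in the dimmest tercile, below 5.35. The scatter within groups (median residual SD) was 0.0644 for the lysosomal probe sets, against 0.0960 over all. A level also depends on the probes, so these values describe how well the genes could be measured and rank no transcript against another.

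**Figure D1:**
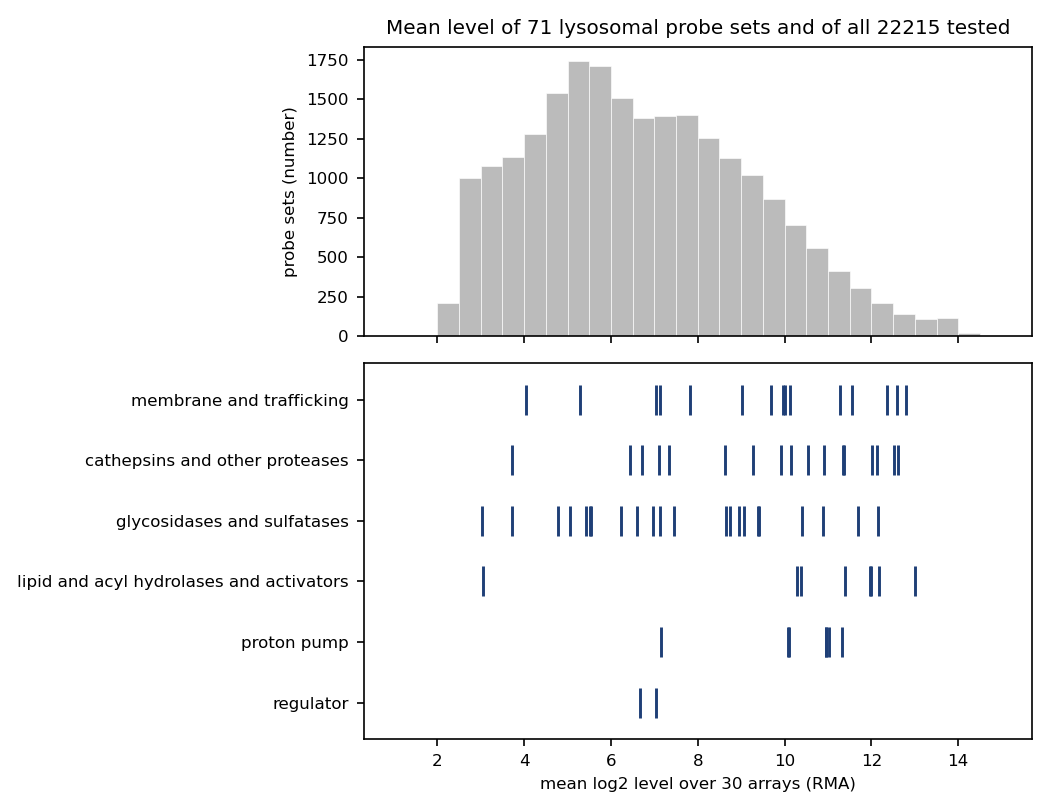
Mean log2 level over the 30 arrays of all 22215 tested probe sets (upper panel, number per bin of width 0.5) and of the 71 lysosomal probe sets by role (lower panel, 1 tick each). Of the 71, 58 lay above the median of all tested probe sets.

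The first question was which lysosomal genes differ from control cultures in each exposed group. Changes are exposed minus control on the log2 scale, tested with limma over all 30 arrays, and a change passed at an adjusted p under 0.05. Across the 8 comparisons no lysosomal probe set rose, and 8 changes in 7 genes fell, all of them at 100 µg/ml. Per comparison, 0% to 7.04% of the 71 probe sets passed, against 0.00450% to 8.43% of all tested, in either direction. Under other processing settings some 1 h rises were called, of SGSH, ASAH1 and IDS, and MAN2B1 and NPC2 fell at 10 µg/ml. ATP6V1A encodes the catalytic subunit of the proton pump. Among the 8 falls it showed the largest, after 24 h with TiO2-NB, on 1 of its 2 probe sets. The other falls were small, those of hydrolases and of NPC2 after 1 h. The 4 comparisons at each time share their controls, so they are not independent of each other.

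**Figure D2:**
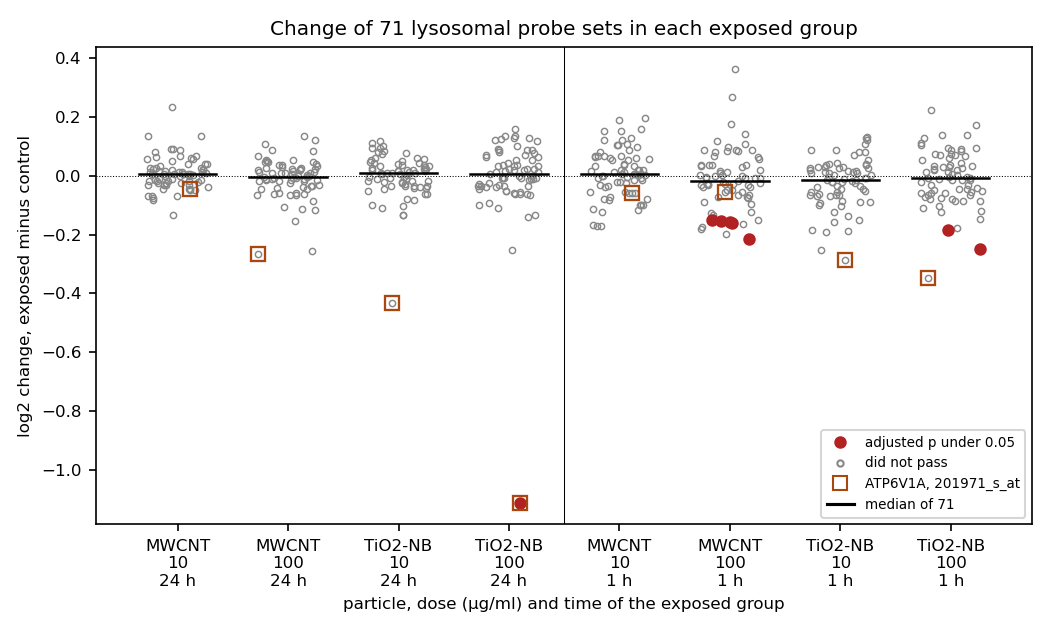
Log2 change (exposed minus control, vertical axis) of the 71 lysosomal probe sets in each exposed group (horizontal axis: particle, dose in µg/ml, time). Filled points passed at an adjusted p under 0.05, squares mark ATP6V1A 201971_s_at, and bars are the median of the 71, which stayed between -0.02 and 0.01.

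After 24 h with TiO2-NB at 100 µg/ml, 1 of the 71 probe sets passed, against 3.53% of all tested in either direction and 2.80% that fell. ATP6V1A is measured by 2 probe sets. For the first, 201971_s_at, the levels were 6.39, 6.07 and 5.85 in cultures with TiO2-NB at 100 µg/ml, against 7.26, 7.26 and 7.12 in 24 h controls. All exposed arrays lay below all controls. The change was -1.11 ± 0.11 (SE, n = 3 arrays each, 95% interval -1.34 to -0.88), or 2.16-fold lower (limma, adjusted p = 4.94e-07). Of all 22215 probe sets tested, 78 had a larger fall, whether or not it passed, and 623 passed as falls.

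The same probe set was measured in the other exposed groups. With TiO2-NB at 10 µg/ml for 24 h it read 6.89, 6.79 and 6.67, a change of -0.43 against the same controls that did not pass (limma, adjusted p = 0.252). These 3 arrays also lay below all controls. With MWCNT at 100 µg/ml for 24 h it read 7.10, 6.95 and 6.79, again below all controls, with a change of -0.27 that did not pass (limma, adjusted p = 0.892). With MWCNT at 10 µg/ml for 24 h it read 7.31, 7.27 and 6.92, which overlapped the controls, with a change of -0.04. Here and below, lying beyond all controls describes the arrays and is not a call. With 3 against 3 arrays the smallest possible exact two-sided permutation p is 0.1.

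At 1 h the probe set read 7.23, 7.31 and 7.24 with TiO2-NB at 100 µg/ml, against 7.46, 7.63 and 7.73 in 1 h controls. All exposed arrays lay below all controls, and the change of -0.35 did not pass (limma, adjusted p = 0.0546). Without the control replicate 1 it was -0.42 (adjusted p = 0.0338). With TiO2-NB at 10 µg/ml it read 7.36, 7.36 and 7.24, also below all controls, a change of -0.28 (limma, adjusted p = 0.129). MWCNT gave overlapping values, 7.64, 7.62 and 7.39 at 100 µg/ml and 7.51, 7.56 and 7.58 at 10 µg/ml, each a change of -0.06.

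The second probe set of ATP6V1A, 201972_at, did not show the fall. It read 10.94, 11.02 and 10.95 with TiO2-NB at 100 µg/ml for 24 h, against 10.99, 10.96 and 10.94 in 24 h controls. The groups overlapped, and the change was 0.0045 with a 95% interval of -0.08 to 0.09, too narrow to hold the fall of the first probe set. Over all 8 comparisons its changes lay between -0.04 and 0.05. Which part of the transcript each probe set reads was not examined here, and what sets them apart was not tested.

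The difference between the changes of both probe sets was itself tested, a test chosen after their values were seen. It was fitted for 7101 pairs of probe sets of the same gene, each further probe set against the one with the highest mean. For ATP6V1A it was -1.12 ± 0.11 with TiO2-NB at 100 µg/ml for 24 h (limma, adjusted p = 4.99e-07), and it passed in 1 of 34 lysosomal pairs, against 7.06% of all pairs. Leaving out any 1 of the 6 arrays compared kept the call on 201971_s_at, with changes between -1.26 and -0.98 (adjusted p at most 9.82e-06). In a count with 1 probe set per gene, in which the brighter 201972_at stands for ATP6V1A, no lysosomal gene passed at 24 h.

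**Figure D3:**
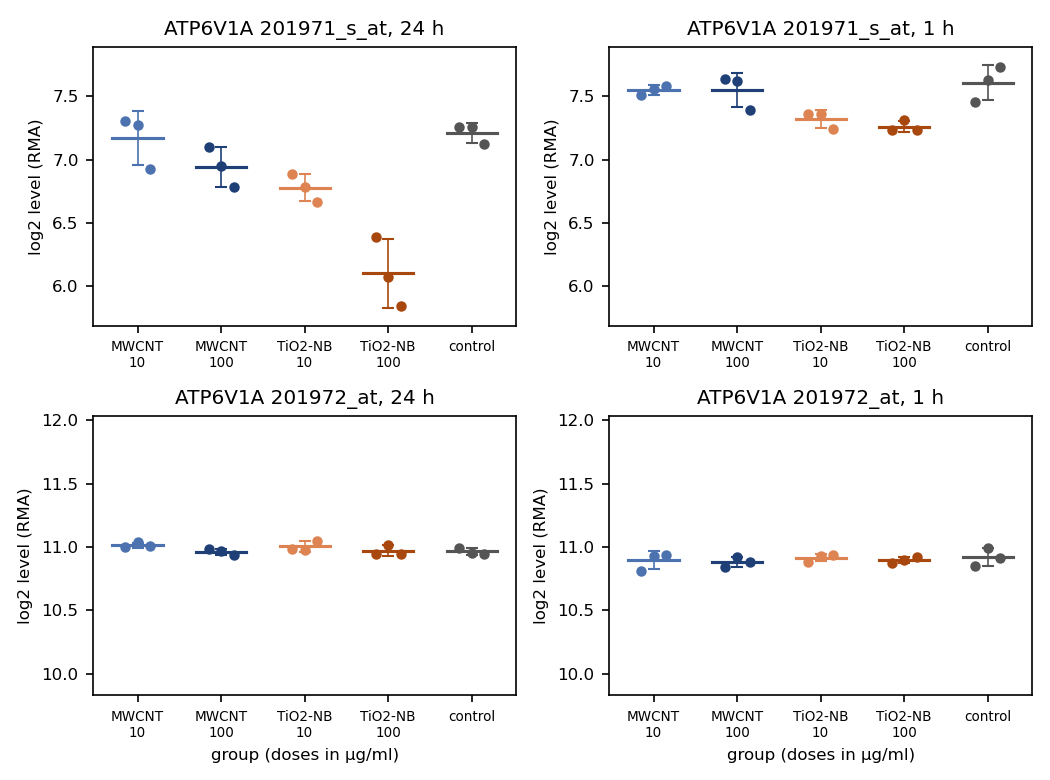
Log2 level (vertical axis) of the 2 ATP6V1A probe sets on each array at 24 h (left) and 1 h (right), by group (horizontal axis, doses in µg/ml). Points are arrays, horizontal lines means and error bars SD (n = 3); 201971_s_at averaged 6.10 with TiO2-NB at 100 µg/ml for 24 h and 7.21 in 24 h controls, while 201972_at averaged 10.97 and 10.96.

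The other pump genes on the list did not pass in any comparison with control. They are ATP6V1H, a regulatory V1 subunit, ATP6V0D1, which joins both sectors, ATP6V0C, whose copies form the proton-carrying ring, and ATP6AP1, an accessory protein. With TiO2-NB at 100 µg/ml for 24 h the 7 probe sets of the pump had a median change of 0.0045 and a highest of 0.09. A further 14 measured V-ATPase genes, from a list of other subunits, had none called there and a median of 0.02.

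No member passed in the other comparisons at 24 h. Of all probe sets tested, 0.00450% passed with MWCNT at 10 µg/ml, 0.00900% with MWCNT at 100 µg/ml and 0.0585% with TiO2-NB at 10 µg/ml. At an unadjusted p under 0.05 the counts were 2 of 71 lysosomal probe sets with MWCNT at 10 µg/ml (2.82%, against 4.29% of all), 5 with MWCNT at 100 µg/ml (7.04%, against 5.56%) and 2 with TiO2-NB at 10 µg/ml (2.82%, against 7.59%). The 95% interval of the change lay within 1.5-fold in either direction for 71, 71 and 70 of the 71 probe sets.

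The members with the smallest p at 24 h after ATP6V1A are given as not having passed. CTSB, the cysteine protease cathepsin B, has 4 probe sets. Its 213274_s_at read 9.03, 9.09 and 9.03 with TiO2-NB at 100 µg/ml, against 9.26, 9.30 and 9.35 in controls. All exposed arrays were lower, by 0.25 ± 0.072, with an adjusted p of 0.0508 (limma). The other 3 CTSB probe sets changed by -0.05 to 0.02 in that group.

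LAMP1, a glycoprotein that lines the lysosomal membrane, read 9.22, 9.29 and 9.13 on 201551_s_at with MWCNT at 10 µg/ml, against 8.97, 8.95 and 9.03 in controls. Its exposed arrays were all higher (change 0.23, limma, adjusted p = 0.758). LAMP1 has 4 probe sets, and this change lay 0.17 above that of the brightest, 201553_s_at, a difference that did not pass. TPP1, a tripeptidyl peptidase, read 10.09, 10.14 and 10.12 on 200742_s_at with MWCNT at 100 µg/ml, against 10.33, 10.31 and 10.17 in controls. Its exposed arrays were all lower (change -0.16, adjusted p = 0.775, 1 of its 4 probe sets). LAMP2, which also serves chaperone-mediated autophagy, changed by 0.12 on 1 of its 3 probe sets with TiO2-NB at 100 µg/ml (adjusted p = 0.246). PPT1, which removes palmitate from proteins, changed by 0.11 with MWCNT at 100 µg/ml, with overlapping arrays (adjusted p = 0.892).

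After 1 h with MWCNT at 100 µg/ml, 5 of the 71 probe sets fell and none rose, that is 7.04%, against 7.78% of all tested called in either direction and 4.27% that fell. They belong to MAN2B1, GUSB, HEXA, CTSA and NPC2. The first 3 encode enzymes that cut sugars from glycoproteins, glycosaminoglycans and glycolipids. CTSA is a carboxypeptidase that also protects the lysosomal sialidase and beta-galactosidase, and NPC2 is a soluble protein that hands cholesterol to NPC1. The median change of the 71 was -0.02, against -0.01 over all tested.

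MAN2B1, the lysosomal alpha-mannosidase, read 8.92, 8.71 and 8.76 with MWCNT at 100 µg/ml, against 8.97, 9.03 and 9.03 in 1 h controls. The groups did not overlap, although the first exposed array lay near the controls. It fell by 0.21 ± 0.053 (limma, adjusted p = 0.0131), or 1.16-fold. The change no longer passed without exposed replicate 2 (-0.17, adjusted p = 0.0798) or exposed replicate 3 (-0.20, adjusted p = 0.0595).

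GUSB, a beta-glucuronidase, read 11.53, 11.55 and 11.57 with MWCNT at 100 µg/ml, against 11.66, 11.73 and 11.75 in controls. The exposed arrays were tightly grouped and all lower. It fell by 0.16 ± 0.038 (limma, adjusted p = 0.0107). Without control replicate 3 the change was -0.14 and did not pass (adjusted p = 0.0520).

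HEXA, the alpha subunit of hexosaminidase A, read 10.72, 10.79 and 10.79 on 201765_s_at with MWCNT at 100 µg/ml, against 10.92, 10.90 and 10.92 in controls. All exposed arrays were lower, and it fell by 0.15 ± 0.042 (limma, adjusted p = 0.0303). It passed without exposed replicate 2 (adjusted p = 0.0469) and in none of the fits without exposed replicate 1, exposed replicate 3 or any 1 of the controls (adjusted p up to 0.108).

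CTSA read 12.41, 12.48 and 12.48 with MWCNT at 100 µg/ml, against 12.60, 12.61 and 12.61 in controls. All exposed arrays were lower, and it fell by 0.15 ± 0.044 (limma, adjusted p = 0.0341). Without any 1 of the 6 arrays it did not pass (changes of -0.17 to -0.13, adjusted p 0.0508 to 0.114).

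NPC2 read 12.56, 12.39 and 12.44 with MWCNT at 100 µg/ml, against 12.58, 12.63 and 12.66 in controls. The exposed arrays were lower, the nearest by little, and it fell by 0.16 ± 0.044 (limma, adjusted p = 0.0265). It did not pass without exposed replicate 2 or 3 or control replicate 2 or 3 (changes of -0.16 to -0.13, adjusted p 0.0710 to 0.130).

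After 1 h with TiO2-NB at 100 µg/ml, 2 of the 71 probe sets fell and none rose (2.82%), against 8.43% of all tested in either direction and 5.78% that fell. After a second quantile normalisation the split was 2 rises and 1 fall: SGSH 204293_at (0.18, limma, adjusted p = 0.0263) and IDS 212221_x_at (0.17, adjusted p = 0.0413) rose, GLA fell, and MAN2B1 did not pass. GLA, the alpha-galactosidase that degrades globotriaosylceramide, read 9.20, 9.29 and 9.22, against 9.44, 9.41 and 9.61 in controls. All exposed arrays were lower, and it fell by 0.25 ± 0.066 (limma, adjusted p = 0.0174), or 1.19-fold. It did not pass without control replicate 3 (-0.19, adjusted p = 0.129), exposed replicate 1 (-0.23, adjusted p = 0.0709) or exposed replicate 3 (-0.24, adjusted p = 0.0519).

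MAN2B1 was the only member called with both particles at 1 h. It read 8.78, 8.80 and 8.90 with TiO2-NB at 100 µg/ml, all below the controls given above, and fell by 0.18 ± 0.053 (limma, adjusted p = 0.0307). It did not pass without control replicate 2 or 3 or exposed replicate 1 or 2 (changes of -0.17 to -0.16, adjusted p 0.0906 to 0.123). Since both comparisons use the same controls, the shared fall is not 2 independent observations.

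At 10 µg/ml for 1 h no member passed. Of all probe sets tested, 6.46% passed with MWCNT and 7.84% with TiO2-NB, and at an unadjusted p under 0.05 the counts were 14 of 71 lysosomal probe sets with MWCNT (19.7%, against 19.7% of all) and 8 with TiO2-NB (11.3%, against 20.9%). MAN2B1 read 8.74, 8.82 and 8.96 with MWCNT, again below all controls, with a change of -0.17 (limma, adjusted p = 0.0544). With TiO2-NB it read 8.96, 8.87 and 9.01 and overlapped them, with a change of -0.07. Under other settings 1 to 3 probe sets passed with MWCNT: SGSH 204293_at rose after the second quantile normalisation (0.17, adjusted p = 0.0409), and SGSH (0.15, adjusted p = 0.0444) and ASAH1 210980_s_at (0.16, adjusted p = 0.0446) rose and MAN2B1 fell (adjusted p = 0.0298) without the dimmest tercile. Without MWCNT replicate 3, 1 probe set passed, and without control replicate 1, 2 passed with TiO2-NB.

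**Figure D4:**
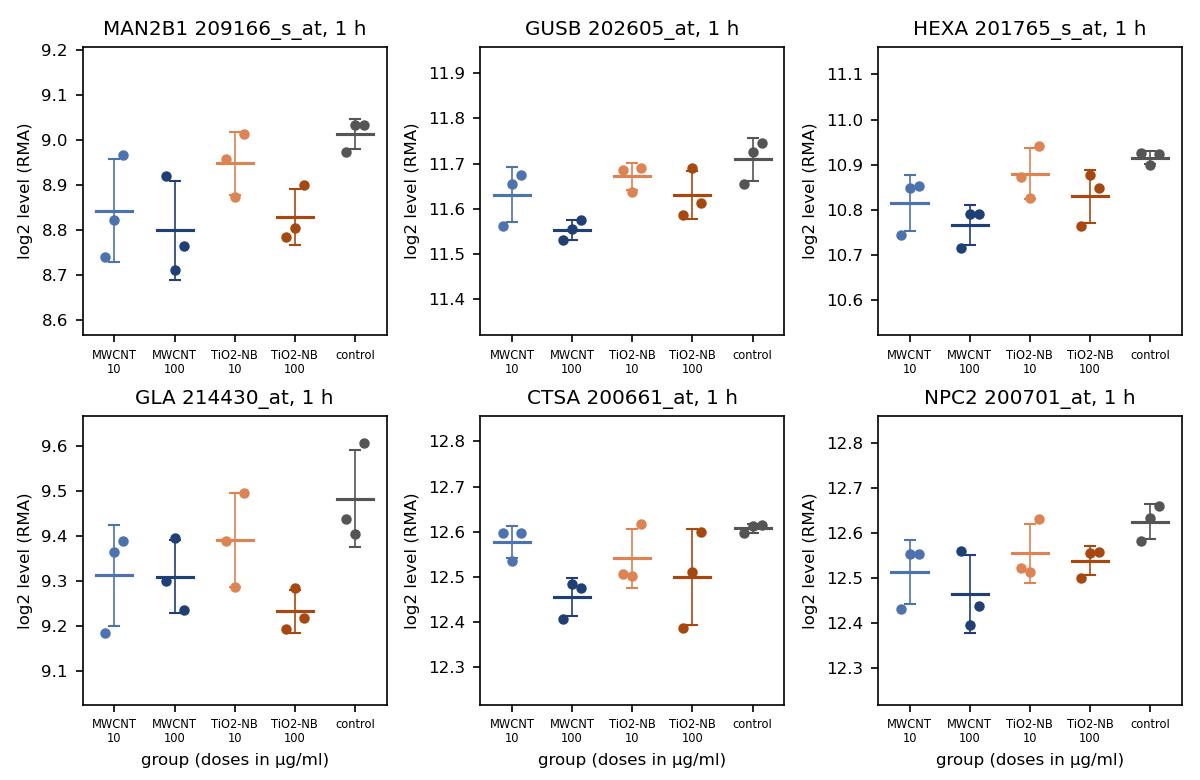
Log2 level (vertical axes, each spanning 0.64) at 1 h of the 6 genes that fell in at least 1 group, by group (horizontal axis, doses in µg/ml). Points are arrays, horizontal lines means and error bars SD (n = 3); MAN2B1 averaged 8.80 with MWCNT at 100 µg/ml, 8.83 with TiO2-NB at 100 µg/ml and 9.01 in controls.

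The falls at 1 h were not seen at 24 h, when MAN2B1 changed by 0.01 to 0.02, GUSB by -0.06 to 0.01, HEXA by -0.05 to 0.02, GLA by -0.04 to 0.07, CTSA by -0.11 to 0.01 and NPC2 by -0.06 to -0.01. The test of that difference (24 h effect minus 1 h effect) did not pass for any of them, with 0.11 as the smallest adjusted p, for MAN2B1 with MWCNT at 100 µg/ml (difference 0.23 ± 0.075). In the mean of the 4 exposed groups at 1 h, 3 of 71 fell, against 12.4% of all tested in either direction and 7.60% that fell. These were MAN2B1 (-0.16 ± 0.042, limma, adjusted p = 0.0131), GLA (-0.17 ± 0.052, adjusted p = 0.0310) and NPC2 (-0.11 ± 0.035, adjusted p = 0.0461). After the second quantile normalisation 2 rose, both of SGSH (0.15 on 204293_at and 0.10 on 35626_at), and 2 fell, GLA no longer passing. Without control replicate 3 none of the 3 passed (adjusted p 0.0751, 0.295 and 0.216), and without control replicate 2 neither MAN2B1 nor NPC2 did (0.0740 and 0.153). NPC2 passed without 5 of the 15 arrays and MAN2B1 and GLA without 13 and 14. In the mean of the exposed groups at 24 h, ATP6V1A 201971_s_at alone fell, by 0.46 ± 0.088 (adjusted p = 0.0205), against 0.324% of all tested in either direction and 0.284% that fell. Without any 1 control it did not pass (adjusted p 0.0996 to 0.203).

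Levels of 18S and 28S ribosomal RNA, which are signs of RNA quality, had higher means in exposed cultures at 1 h. The mean of the 3 probe sets for 18S ribosomal RNA was 9.30 with MWCNT at 100 µg/ml and 8.81 with TiO2-NB at 100 µg/ml, against 8.37 in 1 h controls. Each exact two-sided permutation p was 0.1, the smallest that 3 against 3 arrays allow. The 28S level was 8.99 and 8.90 in these groups, against 8.79 (permutation p = 0.1 and 0.2), and its part in the 1 h falls was not tested. The difference between probe sets at both ends of the GAPDH and ACTB transcripts changed by -0.04 to 0.02 (permutation p 0.4 to 0.8). With the 18S level as a covariate, chosen after the data were seen, 0 of 71 passed in each 1 h comparison. With MWCNT at 100 µg/ml the changes were then -0.07 for NPC2 (-0.16 without the covariate), -0.11 for MAN2B1 (-0.21), -0.12 for HEXA (-0.15), -0.14 for CTSA (-0.15) and -0.15 for GUSB (-0.16), so GUSB and CTSA lost their calls with nearly the same change. In the 1 h mean NPC2 changed by -0.05 with the covariate. A fit on the compared groups alone also left 0 called at 1 h. At 24 h, 18S was 8.52 with TiO2-NB at 100 µg/ml, against 8.42 in controls, and the change of ATP6V1A 201971_s_at was -1.12 with the covariate. The 28S ribosomal RNA level was lower there, at 8.55 with TiO2-NB at 100 µg/ml, against 8.72 in controls (difference -0.17, exact two-sided permutation p = 0.1, the smallest possible). Its part in the ATP6V1A fall was not tested.

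Markers of cell types are given beside these results. With MWCNT at 100 µg/ml for 1 h, 1 of 11 enterocyte markers fell (CDX2), and MUC13 among 9 mucus-cell markers and LYZ among 10 leukocyte markers rose. The mean level of the leukocyte list ran from 6.47 to 6.54 over exposed arrays and from 6.40 to 6.57 over controls. With TiO2-NB at 100 µg/ml for 1 h, where GLA and MAN2B1 fell, 2 of 10 leukocyte markers (CD53 and LYZ) and 1 of 9 mucus-cell markers (MUC13) rose. The leukocyte list had a median change of 0.15 and averaged 6.51 to 6.69 over exposed arrays and 6.40 to 6.57 over controls. With TiO2-NB at 100 µg/ml for 24 h, MUC5AC and CD14 rose. The mucus-cell list then averaged 8.96 to 9.02 over exposed arrays and 8.94 to 8.97 over controls, and the leukocyte list 6.52 to 6.64 and 6.49 to 6.53. Their part in the lysosomal results was not tested.

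By role, all 8 falls lay in 4 groups. The roles differ in size and were not tested against each other. At 100 µg/ml for 1 h, 4.27% of all tested probe sets fell with MWCNT and 5.78% with TiO2-NB. For TiO2-NB at 100 µg/ml for 24 h the share was 2.80%. Glycosidases and sulfatases (22 probe sets) had 3 falls with MWCNT and 2 with TiO2-NB, both at 100 µg/ml for 1 h. The cathepsins and other proteases (17 probe sets) had 1, that of CTSA, and the membrane and trafficking proteins (15 probe sets) had 1, that of NPC2. The lipid and acyl hydrolases and activators (8 probe sets) had none in any comparison with control, and their changes lay between -0.12 and 0.16. They are LIPA, which frees cholesterol and fatty acids, PSAP, the precursor of the saposins, PPT1, and ASAH1, an acid ceramidase. TFEB did not pass in any comparison with control, with changes on 221866_at and 50221_at between -0.03 and 0.13.

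Further members stayed below the threshold throughout these 8 comparisons. Among the proteases, CTSZ, a carboxypeptidase, had the largest rise, 0.36 on 210042_s_at with MWCNT at 100 µg/ml for 1 h. It overlapped the controls and did not pass (limma, adjusted p = 0.116). SGSH and ASAH1, which degrade heparan sulfate and ceramide, changed by 0.15 and 0.16 with MWCNT at 10 µg/ml for 1 h (204293_at and 210980_s_at, adjusted p = 0.0781 and 0.0777). NPC1, the membrane partner of NPC2, changed by -0.18 on 202679_at with TiO2-NB at 10 µg/ml for 1 h (adjusted p = 0.105). IDS, a sulfatase of heparan and dermatan sulfate, has a related pseudogene, and whether any of its 9 probe sets also read it was not examined.

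The dose comparison, 100 against 10 µg/ml, gave 1 lysosomal call among 4 comparisons. For TiO2-NB at 24 h, ATP6V1A 201971_s_at was lower at 100 µg/ml by 0.68 ± 0.11 (limma, adjusted p = 8.34e-04), where 1.83% of all probe sets passed. All 3 arrays at 100 µg/ml lay below all 3 at 10 µg/ml. Without replicate 2 of the 10 µg/ml group, 2 lysosomal probe sets passed. In the other 3 comparisons 0 of 22215 probe sets passed (limma), and at an unadjusted p under 0.05 the counts were 6 of 71 lysosomal probe sets for MWCNT at 24 h (8.45%, against 6.65% of all), 6 for MWCNT at 1 h (8.45%, against 6.83%) and 5 for TiO2-NB at 1 h (7.04%, against 6.42%). TPP1 on 214196_s_at had the smallest p for MWCNT at 24 h, with a change of -0.35 (adjusted p = 0.491).

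MWCNT and TiO2-NB differed in 1 lysosomal probe set. After 24 h at 100 µg/ml, ATP6V1A 201971_s_at was higher with MWCNT than with TiO2-NB by 0.84 ± 0.11 (limma, adjusted p = 3.84e-05), or 1.80-fold, where 2.88% of all passed. The MWCNT arrays all lay above the TiO2-NB arrays. SCARB2, a receptor that carries glucocerebrosidase to lysosomes, was lower with MWCNT by 0.19 on 201646_at without passing (adjusted p = 0.105). The change of its 215754_at lay 0.33 above that of 201646_at, a difference that passed (limma, adjusted p = 0.0105). That of 201647_s_at lay 0.20 above, which did not pass (adjusted p = 0.153). Such differences passed in 2 of 34 lysosomal pairs, against 5.68% of all pairs. At 10 µg/ml for 24 h, 10 µg/ml for 1 h and 100 µg/ml for 1 h no lysosomal probe set passed, against 0.0315%, 0.0675% and 0% of all, and the ATP6V1A differences were 0.39, 0.23 and 0.29.

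Time after the change of medium was compared in controls. Between the controls, 24 h against 1 h, 4 of 71 probe sets rose and 1 fell, against 18.1% of all tested. In the same comparison 3 of 11 enterocyte markers and 1 of 9 mucus-cell markers rose, and of 10 leukocyte markers 2 rose and 1 fell. Their part in these changes was not tested. TPP1 read 10.33, 10.31 and 10.17 at 24 h, against 9.94, 10.09 and 10.01 at 1 h on 200742_s_at. The times did not overlap, and it rose by 0.26 ± 0.050 (limma, adjusted p = 5.69e-04), also without any 1 array. Its 200743_s_at read 12.02, 12.07 and 12.08, against 11.91, 11.94 and 11.93, and rose by 0.13 ± 0.037 (adjusted p = 0.0128). Without 24 h replicate 2 or 3 it just missed the threshold (adjusted p = 0.0502 and 0.0549).

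LIPA read 12.33, 12.29 and 12.26 at 24 h, against 12.06, 12.19 and 12.18 at 1 h, and rose by 0.15 ± 0.043 (limma, adjusted p = 0.0152). It did not pass without 1 h replicate 1 (adjusted p = 0.107) or 24 h replicate 1 (adjusted p = 0.0736). ATP6V1H read 10.21, 10.22 and 10.21 at 24 h, against 10.02, 10.14 and 10.10 at 1 h, and rose by 0.13 ± 0.043 (adjusted p = 0.0445). It passed without 1 h replicate 2 and in no other fit with 1 array left out (adjusted p 0.0703 to 0.201). ATP6V1A 201971_s_at fell by 0.39 ± 0.11 (adjusted p = 0.0145), but not without 1 h replicate 3 (adjusted p = 0.0781) or 24 h replicate 3 (adjusted p = 0.0695). Its change lay 0.44 below that of 201972_at, a difference that passed between these unexposed controls (limma, adjusted p = 0.0170). Such a difference passed in 1 of 34 lysosomal pairs, against 8.62% of all pairs.

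**Figure D5:**
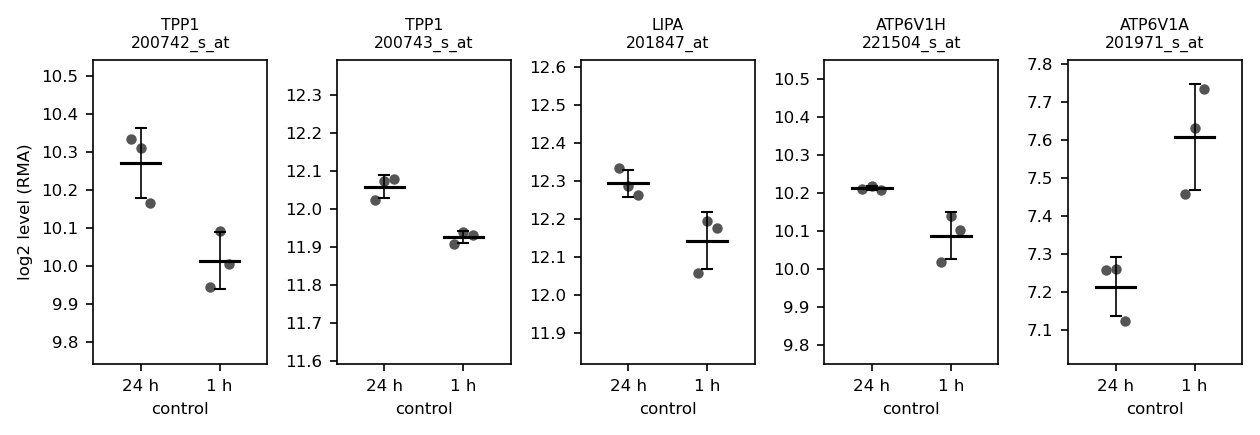
Log2 level (vertical axes, each spanning 0.8) of the 5 lysosomal probe sets that differed between the controls at 24 h (left in each panel) and at 1 h (right). Points are arrays, lines means and error bars SD (n = 3); the first 4 were higher at 24 h, and ATP6V1A 201971_s_at was lower, at 7.21 against 7.61.

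Whether the effect of an exposure differs between 24 h and 1 h was tested for each particle and dose. With TiO2-NB at 100 µg/ml 2 of 71 differed, against 5.84% of all. For ATP6V1A 201971_s_at the effect at 24 h was lower than that at 1 h by 0.77 ± 0.16 (limma, adjusted p = 0.00359). For SCARB2 on 215754_at, a dim probe set, it was lower by 0.36 ± 0.11 (adjusted p = 0.0408), while its brighter 201646_at had a difference of 0.14 and 201647_s_at of -0.02, neither of which passed. With TiO2-NB at 10 µg/ml, MWCNT at 100 µg/ml and MWCNT at 10 µg/ml 0 of 71 differed (limma), against 3.83%, 2.71% and 1.79% of all. At an unadjusted p under 0.05 the counts were 3 of 71 with TiO2-NB at 10 µg/ml (4.23%, against 17.6% of all), 9 with MWCNT at 100 µg/ml (12.7%, against 16.2%) and 6 with MWCNT at 10 µg/ml (8.45%, against 13.0%).

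Lists of further genes of the same pathways were counted with 1 probe set per gene. With TiO2-NB at 100 µg/ml for 24 h, 3.53% of all probe sets passed in either direction and 2.80% fell. In that group 1 of 19 other hydrolases fell, the protease CTSO (-0.21 ± 0.053, limma, adjusted p = 0.0215). Of 19 genes of the lysosomal membrane and of sorting, 1 fell, SLC17A5, which exports sialic acid (-0.67 ± 0.090, adjusted p = 1.79e-05). Of 19 genes that control TFEB through mTORC1 or are related to it, 2 fell, RRAGC, a GTPase that recruits mTORC1 to lysosomes (-0.54 ± 0.067, adjusted p = 6.81e-06), and MITF, a factor of the TFEB family (-0.52 ± 0.084, adjusted p = 2.11e-04). The medians of these 3 lists were -0.01, 0.03 and 0.02, against 0.01 over all tested. Of 19 autophagy genes, WIPI1 rose by 0.23 and ATG12 fell by 0.20, while 1 further probe set of WIPI1 and 2 of ATG12 did not pass.

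At 1 h, with 6.46% to 8.43% of all probe sets called, 2 or 3 of the 19 genes of the TFEB and mTORC1 list and 3 to 5 of the 19 autophagy genes passed in each exposed group. DDIT4, a stress-induced inhibitor of mTORC1, rose by 1.08 ± 0.11 with MWCNT and by 1.15 ± 0.11 with TiO2-NB, both at 100 µg/ml (limma, adjusted p = 2.33e-06 and 4.88e-07). TSC1, part of a complex that also inhibits mTORC1, fell by 0.18 with MWCNT and by 0.30 with TiO2-NB, both at 10 µg/ml (adjusted p = 0.0483 and 9.75e-04). SQSTM1, an autophagy receptor, rose in all 4 exposed groups by 0.19 to 0.29, and NBR1, a receptor of the same kind, fell in all 4 by 0.17 to 0.29. PPP3CB, a catalytic subunit of calcineurin, which dephosphorylates TFEB, fell in all 4 by 0.15 to 0.19. UVRAG, which acts in autophagosome and endosome maturation, fell in 3 of the 4. ULK1, a kinase that starts autophagy, fell by 0.22 with TiO2-NB at 10 µg/ml, and with TiO2-NB at 100 µg/ml MAP1LC3B, an autophagosome protein, rose by 0.18 and WIPI2, which acts in autophagosome formation, fell by 0.14. IGF2R, which carries newly made hydrolases to lysosomes, rose by 0.40 with MWCNT and 0.23 with TiO2-NB at 100 µg/ml.

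Of 14 other V-ATPase genes, ATP6V1C1 fell at 1 h by 0.25 and 0.21 with TiO2-NB at 10 and 100 µg/ml and by 0.14 with MWCNT at 10 µg/ml, and ATP6AP2 rose by 0.14 in that last group. Of 19 other hydrolases at 1 h, GALC fell with MWCNT at 100 µg/ml, and with TiO2-NB at 100 µg/ml HYAL2 rose and MANBA fell. None of 9 measured genes that sense or repair lysosomal damage, among them the galectins LGALS3 and LGALS8, passed in any comparison with control. The 1 h changes stand beside the 18S difference given above, whose part in them was not tested.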

How the data were processed

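The deposited values are log2 levels per probe set and array, which the authors summarised with RMA according to the submitters' processing notes; its version is not given in the sources used here. RMA makes the distributions of arrays alike, so each change is relative to the other transcripts. The 62 control probe sets among 22277 were not tested. Symbols come from the platform annotation: 19064 tested probe sets carry 1 symbol, 1043 several and 2108 none. All 71 lysosomal probe sets matched a RefSeq gene by identifier. Where a gene is counted once, the probe set with the highest mean stands for it.

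A mean per group was fitted with limma 3.58.1 in R 4.3.3 over 30 arrays (20 residual and 3.68 prior degrees of freedom). Tests were two-sided, with Benjamini-Hochberg adjustment over 22215 probe sets within each of 23 comparisons and a threshold of 0.05. A value after ± is the standard error of a change unless named SD. Precision is limited by the number of arrays. The procedure was tested on simulated data.

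The members, gene lists, tests and alternatives were chosen with earlier results of these data known. Values of each array are given for members that passed against control and, at 24 h, also for those with the smallest p. PTPRC, LYZ, AIF1, LAPTM5, CDX2, MUC13, MUC5AC, CD53 and CD14 were named once their levels were known. Other settings tried were the replicate number as a block, leaving out the dimmest tercile of probe sets, quantile normalisation applied again, array weights, a variance trend with intensity (robust), counting 1 probe set per gene, fitting the compared groups alone, and leaving out each array. The 18S covariate and the test between probe sets were added after the data were seen.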

Additional observations from a re-analysis of the deposited data

Results flagged for a closer look

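Both results below stand here because the effect of TiO2-NB at 100 µg/ml differed between 24 h and 1 h by the test of that difference. For ATP6V1A 201971_s_at the difference was -0.77 (limma, adjusted p = 0.00359). The effect was -1.11 at 24 h and -0.35 at 1 h, and the exposed arrays lay below all controls at both times. The difference passed without any 1 of the 12 arrays (-0.91 to -0.64, adjusted p at most 0.0152). The second probe set of ATP6V1A changed by 0.0045 and -0.02 at these times, and the difference between both probe sets in this comparison was -0.79 (adjusted p = 0.00342).

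For SCARB2 215754_at the difference was -0.36 (limma, adjusted p = 0.0408). The levels were 5.12, 5.27 and 5.16 with TiO2-NB, against 5.39, 5.22 and 5.37 in controls at 24 h, and 5.29, 5.49 and 5.56, against 5.08, 5.23 and 5.35, at 1 h. The groups overlapped at both times. The brighter SCARB2 201646_at had a difference of 0.14 (adjusted p = 0.417) and 201647_s_at of -0.02, and the difference between 215754_at and 201646_at was -0.50 (adjusted p = 0.00733). The mean level of 5.28 lies in the dimmest tercile, and without 8 of the 12 arrays, left out in turn, the difference did not pass (adjusted p 0.0677 to 0.109).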

How the results depend on the processing

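No called change turned its sign under any alternative run. Of 37 named changes, 8 turned sign in at least 1 run, all of ATP6V1A and none called (-0.06 to 0.0045 as reported, -0.02 to 0.08 with the turned sign). The fall of ATP6V1A 201971_s_at with TiO2-NB at 100 µg/ml for 24 h passed under all 7 settings that kept this probe set (-1.13 to -1.11, adjusted p 2.15e-08 to 0.0207). The numbers of lysosomal calls moved more. On the compared groups alone 0 passed with MWCNT or TiO2-NB at 100 µg/ml for 1 h, in the mean of exposed groups at 1 h and at 24 h, between TiO2-NB doses at 24 h and between particles at 100 µg/ml for 24 h, 2 passed between controls and 1 in the TiO2-NB 100 µg/ml time difference; that fit has fewer arrays. With the 18S covariate 0 passed with MWCNT or TiO2-NB at 100 µg/ml for 1 h and in the 1 h mean, 2 with TiO2-NB at 100 µg/ml for 24 h and 2 between particles there. Without the dimmest tercile of probe sets, 3 passed with MWCNT at 10 µg/ml for 1 h, 2 with TiO2-NB at 100 µg/ml for 24 h and 7 in the 1 h mean. With the intensity trend these numbers were 3, 2 and 6, with 4 for TiO2-NB at 100 µg/ml for 1 h and 2 between particles at 100 µg/ml for 24 h. The second quantile normalisation gave 1 for MWCNT at 10 µg/ml for 1 h, a rise of SGSH, and 2 for TiO2-NB at 100 µg/ml for 24 h; it gave 2 rises and 1 fall for TiO2-NB at 100 µg/ml for 1 h and 2 rises and 2 falls in the 1 h mean. Without the dimmest tercile MWCNT at 10 µg/ml gave 2 rises and 1 fall, with the trend 1 rise and 2 falls, and with array weights IDS rose with MWCNT at 100 µg/ml for 1 h (0.23, adjusted p = 0.0448). Array weights gave 2 for TiO2-NB at 100 µg/ml for 24 h and 1 in the 1 h mean. They gave 3 between particles at 100 µg/ml for 24 h and 1 in the MWCNT 100 µg/ml time difference. With 1 probe set per gene, 0 passed with TiO2-NB at 100 µg/ml for 24 h, in the 24 h mean, between TiO2-NB doses and between particles at 24 h and in the TiO2-NB time difference, 3 between controls and 1 with MWCNT at 10 µg/ml for 1 h. The second call with TiO2-NB at 24 h was that of CTSB 213274_s_at in each of these 5 settings; the cause of these shifts was not tested.

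Leaving out 1 array gave 0 to 1 calls for MWCNT at 10 µg/ml, 1 to 4 for MWCNT at 100 µg/ml, 0 to 2 for TiO2-NB at 10 µg/ml and 1 to 3 for TiO2-NB at 100 µg/ml at 1 h. It gave 0 to 5 in the 1 h mean, 0 to 1 in the 24 h mean, 1 to 2 between TiO2-NB doses at 24 h, 2 to 6 between controls, and 0 to 1 and 1 to 3 in the MWCNT and TiO2-NB 100 µg/ml time differences. Counting each named change once per run, 38 no longer passed and 3 newly passed under another setting. The remaining 231 matched the reported fit in passing or not, which includes changes that passed in neither. Without 1 array these counts were 60, 1 and 203.

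The replicate number does not pair the samples: over 24 same-numbered pairs the correlation of deviations ran from -0.12 to 0.21, with 5 over 0.1. With the replicate block, 1 lysosomal probe set passed in the TiO2-NB 100 µg/ml time difference, SCARB2 being at an adjusted p of 0.0511, and ATP6V1A 201971_s_at passed with TiO2-NB at 100 µg/ml for 1 h (adjusted p = 0.0255). In the 1 h mean the block took the call of NPC2 (adjusted p = 0.0552) and added a rise of SGSH 204293_at (0.12, adjusted p = 0.0494), and between controls it took that of ATP6V1H (adjusted p = 0.0510) and added LAMP2 203042_at (0.16, adjusted p = 0.0378). Dim signals limit 8 of the 71 probe sets.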
